A study of Mus musculus with 4 samples.

Results

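The genes described here are the molecules of the major histocompatibility complex (MHC) and the proteins that load peptides onto them, measured cell type by cell type in the hippocampus of sham-operated mice and of a mouse after two-vessel occlusion (2VO). Members were every gene whose symbol begins with H2-, 34 genes, plus B2m, Tap1, Tap2, Tapbp, Cd74, Ciita, Nlrc5, Psmb8 and Psmb9. This gave 43 of the 31053 genes counted. They divide into 31 class I genes (2 classical, 22 non-classical and 7 for loading or control), 11 class II genes (4 classical, 5 non-classical, and Cd74 and Ciita) and H2-Ke6, a steroid dehydrogenase gene that has the H2- name but belongs to neither class. By position, 39 of the 43 lie on chromosome 17 of GRCm38 between bases 33915899 and 37483552.

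The samples were C57BL/6 mice of 12 weeks by their labels, from which whole hippocampi were dissociated with pronase and profiled by droplet single-cell RNA sequencing with no sorting. In 2VO mice both common carotid arteries were clamped and then released, which gives a transient global ischemia. In sham mice the clamps were placed and released at once, so both groups had the anesthesia, the neck incision and a brief closure. The labels give no time after surgery. There were 2 sham libraries (sham 1 and sham 2) and as many 2VO libraries, each from a single mouse. The second 2VO library was not analysed here, so every comparison below sets the lone library 2VO 1 against 2 sham libraries.

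Class I molecules are a heavy chain paired with B2m, and they show peptides from inside the cell to CD8+ T cells and natural killer cells. The peptides are cut by proteasomes, which have Psmb8 and Psmb9 among their interferon-inducible catalytic subunits. The peptides are then pumped into the endoplasmic reticulum by Tap1 and Tap2, and loaded with the help of tapasin, the product of Tapbp. H2-Aa encodes a class II alpha chain, and H2-Ab1 and H2-Eb1 encode beta chains of different pairs. Class II molecules are pairs of an alpha and a beta chain that show peptides from endosomes to CD4+ T cells. Cd74 is the invariant chain that guards their groove, H2-DMa and H2-DMb1 exchange its remnant for peptide, and H2-Oa and H2-Ob restrain that exchange. In the resting brain class I is best known from vessels and class II from macrophages at the borders, and both are raised in microglia by interferon.

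Promoter letters of a few members are given first, because the same short motifs recur in several class I heavy chain genes. RefSeq's GRCm38.p6 promoter windows run from 250 bases before to 50 bases after a start site and matched 36 of the 43 members. The windows shown are H2-K1 (chr17:34000298-34000597, minus strand), H2-D1 (chr17:35262844-35263143, plus strand), H2-Q7 (chr17:35438905-35439204, plus strand), B2m (chr2:122147437-122147736, plus strand) and the class II gene H2-Eb1 (chr17:34305617-34305916, plus strand), each read 5′ to 3′ along its gene. Capitals mark matches on either strand to 4 motifs: the interferon-response type GAANNGAAA, the kappaB type GGGGATTCC, the X box core AACNGATG and the Y box ATTGG.
H2-K1: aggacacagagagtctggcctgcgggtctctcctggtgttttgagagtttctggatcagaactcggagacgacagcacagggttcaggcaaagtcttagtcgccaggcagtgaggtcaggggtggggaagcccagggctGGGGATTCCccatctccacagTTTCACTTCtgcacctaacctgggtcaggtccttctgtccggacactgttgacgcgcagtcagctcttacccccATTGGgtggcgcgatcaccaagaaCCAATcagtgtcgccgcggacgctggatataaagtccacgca
H2-D1: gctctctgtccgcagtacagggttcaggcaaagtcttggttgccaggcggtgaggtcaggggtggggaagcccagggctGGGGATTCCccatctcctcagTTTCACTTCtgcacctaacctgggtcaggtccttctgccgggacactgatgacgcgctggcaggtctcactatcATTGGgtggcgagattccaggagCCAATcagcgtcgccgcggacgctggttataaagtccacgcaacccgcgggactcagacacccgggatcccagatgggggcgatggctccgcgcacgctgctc
H2-Q7: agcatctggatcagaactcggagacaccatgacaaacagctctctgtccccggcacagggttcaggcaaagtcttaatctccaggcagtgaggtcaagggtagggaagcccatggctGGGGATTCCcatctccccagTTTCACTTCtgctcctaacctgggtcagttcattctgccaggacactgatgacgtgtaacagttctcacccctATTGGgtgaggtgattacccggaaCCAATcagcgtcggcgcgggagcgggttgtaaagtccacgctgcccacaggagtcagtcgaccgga
B2m: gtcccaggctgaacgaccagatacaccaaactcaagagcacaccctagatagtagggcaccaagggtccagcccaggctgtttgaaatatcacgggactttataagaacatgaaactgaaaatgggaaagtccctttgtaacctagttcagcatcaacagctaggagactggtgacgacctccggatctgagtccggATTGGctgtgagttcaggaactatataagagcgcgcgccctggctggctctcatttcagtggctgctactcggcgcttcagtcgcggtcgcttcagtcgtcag
H2-Eb1: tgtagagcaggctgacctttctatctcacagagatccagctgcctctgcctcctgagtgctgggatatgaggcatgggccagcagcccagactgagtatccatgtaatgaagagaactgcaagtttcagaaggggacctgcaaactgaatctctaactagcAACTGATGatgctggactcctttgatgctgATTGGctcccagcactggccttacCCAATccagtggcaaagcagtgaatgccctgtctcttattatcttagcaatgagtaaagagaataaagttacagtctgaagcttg
H2-K1, H2-D1 and H2-Q7 hold the kappaB-type and the interferon-response-type letters close together and with the same spelling. The kappaB-type match starts 111, 171 and 133 bases before the start in the 3 genes, and the interferon-response-type match 90, 150 and 113 bases before it. In H2-Eb1 the X box core starts at -89 and 2 Y boxes at -59 and -35. B2m holds only a Y box, at -53, of the 4 motifs as spelled. Its window also has gaaactgaaa, where GAAA and GAAA are 2 letters apart. The search for GAANNGAAA does not match it, since GAA and GAAA are then 3 letters apart. Of all 32851 windows in the table, 0.25% hold the kappaB-type letters, against 4 of the 36 matched members (H2-D1, H2-K1, H2-Q6 and H2-Q7). The interferon-response-type letters stand in 7.52% of all windows and in 8 members, and the X box core in 2.32% and in 5 members (H2-DMb1, H2-DMb2, H2-Eb1, H2-Eb2 and H2-M10.4). The Y box is short and stands in 37.4% of all windows, and in 32 members. A match is a description of letters and no evidence of binding, and members with related sequences share such letters.

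After cells with fewer than 650 detected genes were left out, 14147 cells remained (5109, 5126 and 3912 in sham 1, sham 2 and 2VO 1, the order used for all values below). The libraries differed in depth: the median cell held 8191, 5249 and 2311 UMIs (unique molecular identifiers, each a counted transcript), and the mitochondrial share was 3.38%, 4.09% and 5.89%. Any pair of libraries shared 7 to 10 cell barcodes. Clusters were built without the members and named from markers, so each name below stands for cells like that type. Of the named classes 13 had at least 10 cells in every library. Among glia and immune cells these were oligodendrocyte precursor cells (OPCs), oligodendrocytes (OLGs), astrocytes (ASTs), microglia and macrophages, and among neurons neural progenitors (NPCs), glutamatergic neurons (GLUTNs) and Cajal-Retzius cells. At the vessels and borders they were endothelium (ECs), pericytes (PERs), smooth muscle of vessels (VSMCs), leptomeningeal cells of vessels (VLMCs) and epithelium of the choroid plexus (CPECs). In each of the 13 classes its own markers were summed higher in every library than in any other class, which naming by those markers favours. Another class, ependymocytes, had only 9 cells in 2VO 1 and was not tested.

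Levels are given in CPM (UMIs per 1000000 UMIs), for which UMIs were summed over all cells of a class in a library and the class total was adjusted by trimmed mean of M values (TMM) factors. A sum cannot tell fewer expressing cells from less RNA per cell. Changes were tested on these sums with edgeR's quasi-likelihood test, and a call needed both a fold over 1.5 and an adjusted p below 0.05. With 1 residual degree of freedom the test takes the spread of the lone 2VO library to be that of the sham libraries, and a permutation of the 3 libraries, with 3 possible splits, could never reach 0.05. All p-values therefore measure the spread between single mice, and nothing here shows how 2VO mice vary among themselves.

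Class I was found in every cell class, and its level differed widely between classes. The sum of H2-K1, H2-D1 and B2m was highest in macrophages, with a mean of 3438 CPM over the 3 libraries, followed by microglia at 2392 and ECs at 2290. Microglia overlapped with both macrophages and ECs, but the lowest macrophage library (2904) was above the highest EC library (2559). The lowest EC library was in turn above the highest of the next class. PERs (mean 1060) and VLMCs (920) formed a middle step that again did not overlap with the classes under it. OPCs followed at 428, ASTs at 384, VSMCs at 354, OLGs at 253, Cajal-Retzius cells at 209, GLUTNs at 168, NPCs at 160 and CPECs at 153, with overlap between each neighbour and the next. The order is a description, since the classes come from the same cells.

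**Figure D1:**
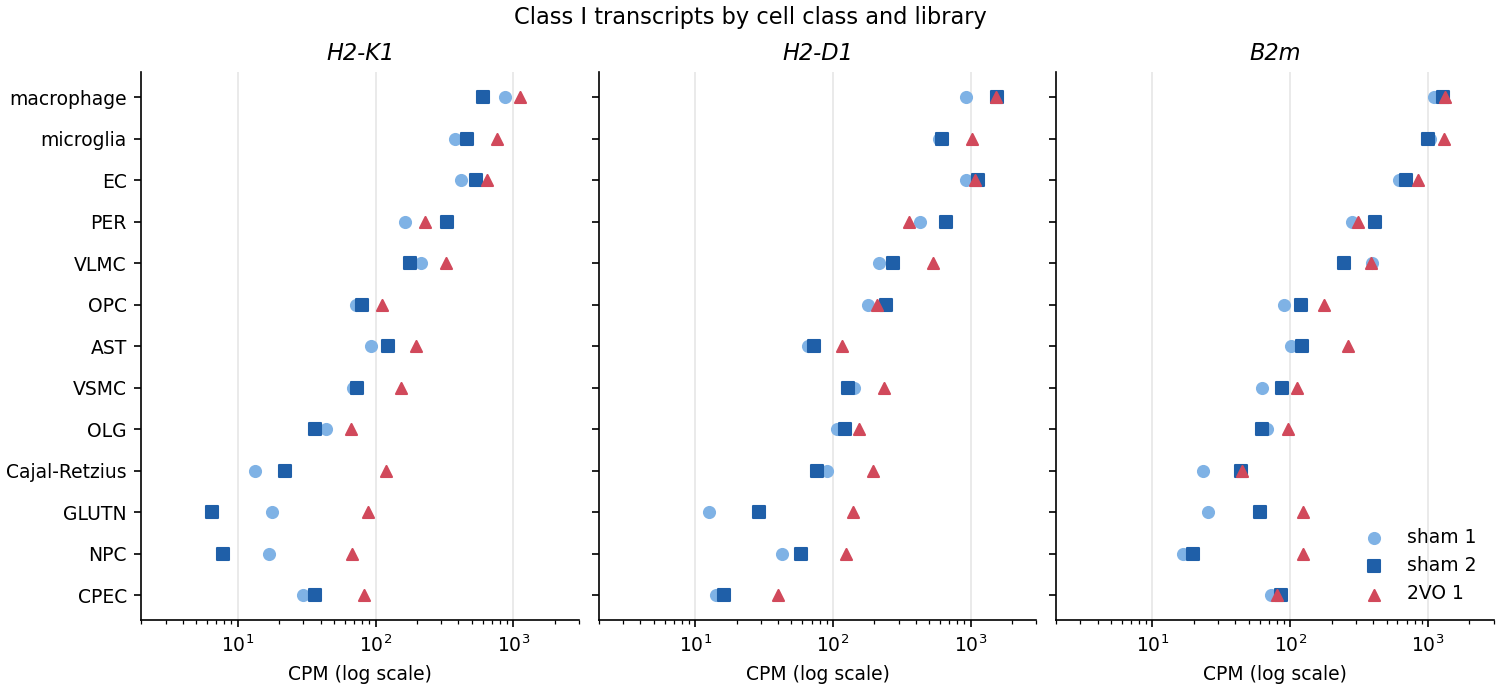
Levels of the classical class I heavy chains H2-K1 and H2-D1 and of their light chain B2m in 13 cell classes, in CPM on a log axis, with a point for each library. Macrophages, microglia and ECs lie highest, and in CPECs the H2-K1 and H2-D1 points of 2VO 1 stand apart from both sham points while the B2m points do not.

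The classical heavy chains had their highest level in macrophages. H2-D1 was at 927, 1544 and 1528 CPM there (log2 fold change 0.30, adjusted p 0.83). For H2-K1 the macrophage values were 871, 604 and 1122 (0.61, adjusted p 0.62), and for B2m 1106, 1286 and 1325 (0.15, adjusted p 0.93). For H2-K1 and B2m 2VO 1 was above both sham libraries, as were 37.8% of all genes, but neither was called. The class is small (19, 23 and 42 cells), and these values rest on 61 to 211 UMIs per gene and library.

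ECs had the highest level of most non-classical class I genes with enough UMIs to place. H2-T23, known as the Qa-1 molecule read by natural killer cell receptors, was at 239, 308 and 286 CPM in ECs (0.06, adjusted p 0.89). H2-Q4 was at 79.2, 132 and 118 (0.15, adjusted p 0.82) and H2-T22, a ligand of some gamma-delta T cells, at 59.7, 68.5 and 74.3 (0.21, adjusted p 0.53). H2-T24 was at 19.1, 20.4 and 26.3 (0.40, adjusted p 0.36). In these 4 genes the 2VO library lay within the range of the sham libraries or less than 1.5-fold above it. H2-M3, which presents formylated bacterial and mitochondrial peptides, was highest in macrophages at 83.0, 109 and 43.5, from 6, 11 and 6 UMIs (-1.14, adjusted p 0.58). H2-Q6 and H2-Q7, which encode Qa-2 antigens, were highest in microglia, where H2-Q6 was at 9.37, 18.0 and 57.0 (2.09, adjusted p 0.12) and H2-Q7 at 12.2, 47.9 and 82.4 (1.50, adjusted p 0.27). The 2VO library was above both sham libraries for both, without a call. For H2-Q7 macrophages overlapped with microglia, at 41.5, 29.7 and 57.9 CPM from 3, 3 and 8 UMIs.

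Transcripts for peptide transport and loading were also highest in macrophages and ECs. Tap2 was highest in ECs at 77.3, 109 and 90.5 CPM (-0.05, adjusted p 0.93), with PERs nearly level at 76.5, 101 and 98.3. Tapbp was highest in macrophages at 83.0, 158 and 181 (0.54, adjusted p 0.66), as was Tap1 at 27.7, 69.3 and 94.1, which had too few UMIs there to be tested. The immunoproteasome subunits were also highest in macrophages: Psmb8 at 180, 455 and 246 (-0.40, adjusted p 0.74) and Psmb9 at 83.0, 198 and 86.9 (-0.74, adjusted p 0.57). Summed, Psmb8 and Psmb9 were at a mean of 416 in macrophages, 320 in microglia and 283 in ECs. The sum was 3.35 in CPECs and 1.85 in NPCs. Both classes thus had heavy chains in every library but almost no transcripts of these 2 subunits. Psmb10, counted with the pathway genes below, was at 35.8, 31.5 and 11.3 in NPCs, from 30, 16 and 1 UMIs. Nlrc5, the transactivator of class I genes, was near the limit of detection everywhere, at 0, 19.8 and 29.0 in macrophages from 0, 2 and 4 UMIs.

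Across the 13 classes, 28 of the 43 members passed the filter on low counts in at least 1 class, H2-K1 and H2-D1 in all 13. These made 165 tests of a member in a class. 15 were called, all higher in the 2VO library, and 10 members were called in at least 1 class. 14 of the 15 calls were class I genes and the other was Cd74. The calls were 6 in CPECs, 3 in OPCs, 2 in GLUTNs and 1 each in NPCs, OLGs, VLMCs and VSMCs. With TMM scaling the median log2 fold change of all genes was between -0.14 and 0.03 in each class, whereas with library totals alone it was shifted to between -0.04 in VLMCs and 0.38 in OLGs (0.34 in CPECs). The folds are relative to that median.

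**Figure D2:**
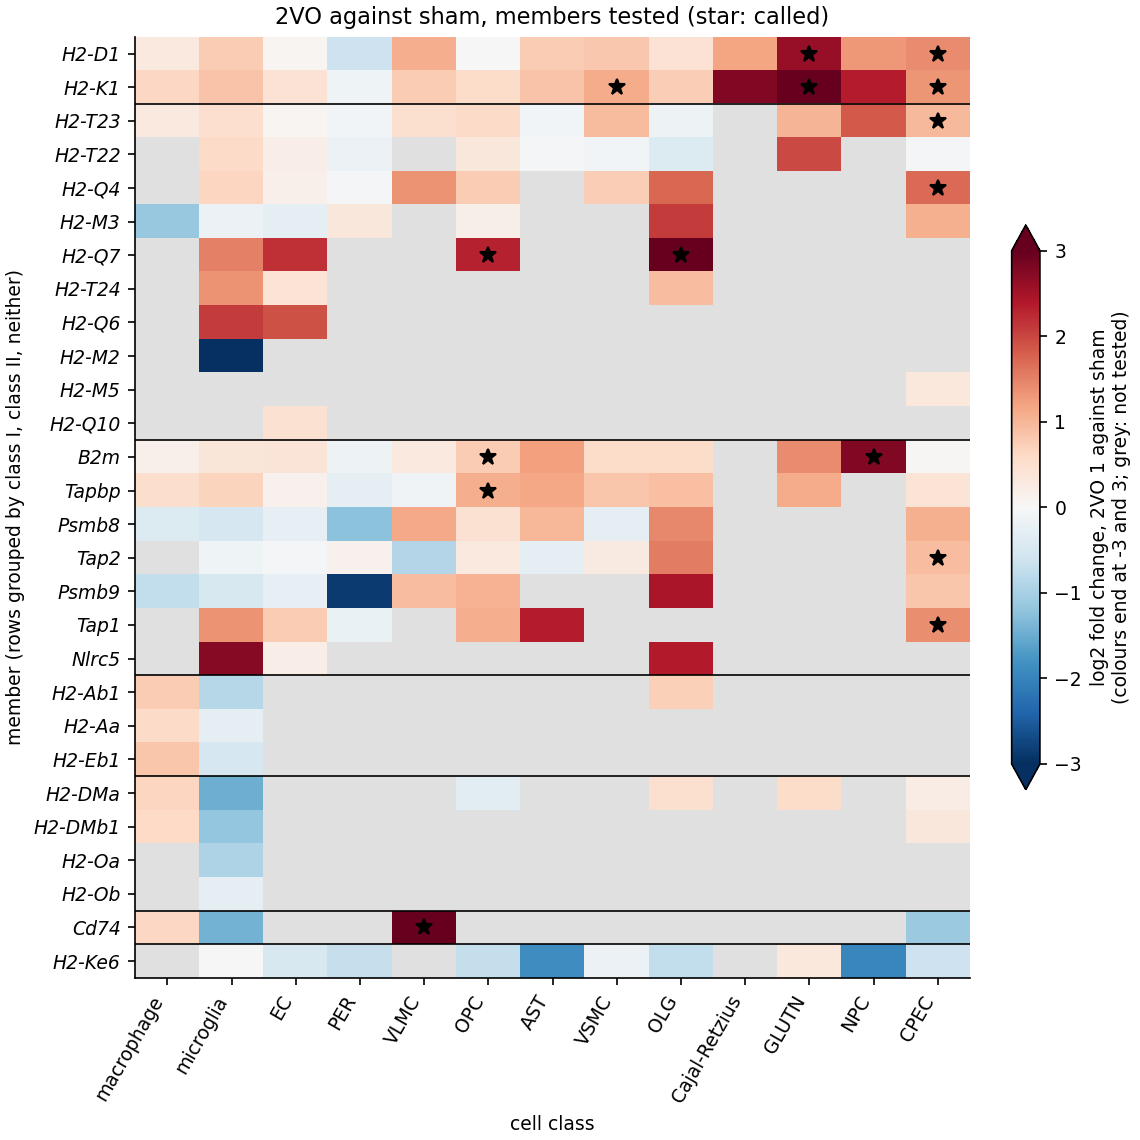
Log2 fold change of 2VO over sham for members (rows) in each cell class (columns), with colours that end at 3 in either direction, a star for a call and grey where the gene had too few UMIs to be tested. The 6 stars of the CPEC column are all class I genes, and no class II gene other than Cd74 in VLMCs carries a star.

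In CPECs, the epithelium that makes cerebrospinal fluid and forms the border between blood and ventricle, the heavy chains and both subunits of the peptide pump rose. H2-K1 was at 30.0, 36.3 and 82.2 CPM, from 705, 311 and 748 UMIs, a 2.50-fold rise (log2 1.32 ± 0.20 SE, adjusted p 0.0029). H2-D1 was at 14.1, 16.1 and 40.0, a 2.67-fold rise (1.42 ± 0.21, adjusted p 0.0023). Both sham libraries were close to each other and 2VO 1 stood above them in each gene. H2-T23 rose 1.97-fold, from 12.7 and 18.9 to 30.6 (0.98 ± 0.24, adjusted p 0.025). H2-Q4 rose 3.23-fold, from 2.21 and 4.20 to 9.68 (1.69 ± 0.37, adjusted p 0.013). In the transporter, Tap1 rose 2.62-fold, from 3.53 and 2.33 to 8.03 (1.39 ± 0.35, adjusted p 0.029), and Tap2 1.90-fold, from 14.7 and 13.7 to 26.9 (0.92 ± 0.21, adjusted p 0.018). These 6 were all among the 13 class I members tested in CPECs, of which 10 lay above both sham libraries (40.3% of all genes did), with a median log2 fold change of 0.98. Over all 12829 genes tested in CPECs, 1.63% were called higher and the median was 0.01.

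The light chain did not move with the heavy chains in CPECs. B2m was at 72.2, 86.0 and 80.7 CPM, from 1699, 737 and 734 UMIs (log2 0.03 ± 0.21, adjusted p 0.95), with 2VO 1 between the sham libraries. Tapbp was at 36.4, 42.0 and 51.9 (0.41, adjusted p 0.27) and H2-T22 at 15.1, 14.2 and 14.1 (-0.06, adjusted p 0.91). H2-M3 was at 1.91, 1.87 and 3.96 (1.06, adjusted p 0.20), Psmb8 at 0.638, 2.10 and 2.53 (1.07, adjusted p 0.42) and Psmb9 at 1.06, 1.52 and 2.20 (0.82, adjusted p 0.49), from 13 to 25 UMIs a library for the last. Class II genes were nearly silent in CPECs except H2-DMb1, at 10.8, 12.8 and 14.8 (0.35, adjusted p 0.44). Their Cd74 value of 6.76 in sham 1, against 0.350 and 1.87, came almost wholly from a single cell, which held 147 of the 159 Cd74 UMIs. H2-Ke6 had its highest level of all classes in CPECs, 81.1, 72.4 and 50.4, with 2VO 1 below both sham libraries (-0.61, adjusted p 0.11).

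CPECs consisted of 2 clusters, and each was also tested apart, a choice made after the class result was seen. In the larger one (379, 139 and 244 cells, with Prlr, Kl and F5 leading) 4 members were called higher: H2-D1 (1.46, adjusted p 0.0076), H2-K1 (1.29, adjusted p 0.013), H2-Q4 (1.73, adjusted p 0.045) and H2-T23 (1.02, adjusted p 0.049). Of all genes tested there 0.698% were called higher. In the other (213, 180 and 208 cells, with Ttr and Calml4 leading) H2-D1 (2.16, adjusted p 0.00091) and H2-K1 (1.55, adjusted p 0.0052) were called, against 3.74% of all genes, and H2-Ke6 fell (-1.42, adjusted p 0.0076), against 8.77% of all genes called lower. B2m was called in neither cluster (0.18 and 0.03). Both heavy chains thus rose in each cluster, while Tap1 and Tap2 were called only in the sum of both. In the larger cluster their log2 fold changes were 1.58 and 0.87 (adjusted p 0.085 and 0.062). In the other they were 0.11 and 0.67 (adjusted p 0.95 and 0.29). The median cell held 41937, 31053 and 29596 UMIs in the larger cluster and 30880, 17871 and 2176 in the other. In the other, shallow 2VO cells were thus set against deeper sham cells, with 73 UMIs of H2-K1 and 64 of H2-D1 in 2VO 1.

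Transcripts of other cell types also moved in the CPEC sums. A list of 11 microglial transcripts, such as C1qa, summed to 38.7, 38.5 and 131 CPM in CPECs, with all 11 seen in each library and 9 called higher. In the microglia of 2VO 1 the same list summed to 23890 CPM, beside 757 for H2-K1 and 1024 for H2-D1. A list of 8 endothelial transcripts summed to 3238, 3953 and 4026 in CPECs, with 1 called, and to 28470 in the ECs of 2VO 1, beside 647 for H2-K1 and 1068 for H2-D1. The part of such RNA in the CPEC result was not tested. The CPECs of 2VO 1 were also shallower, with a median of 7424 UMIs a cell against 39130 and 27727.

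**Figure D3:**
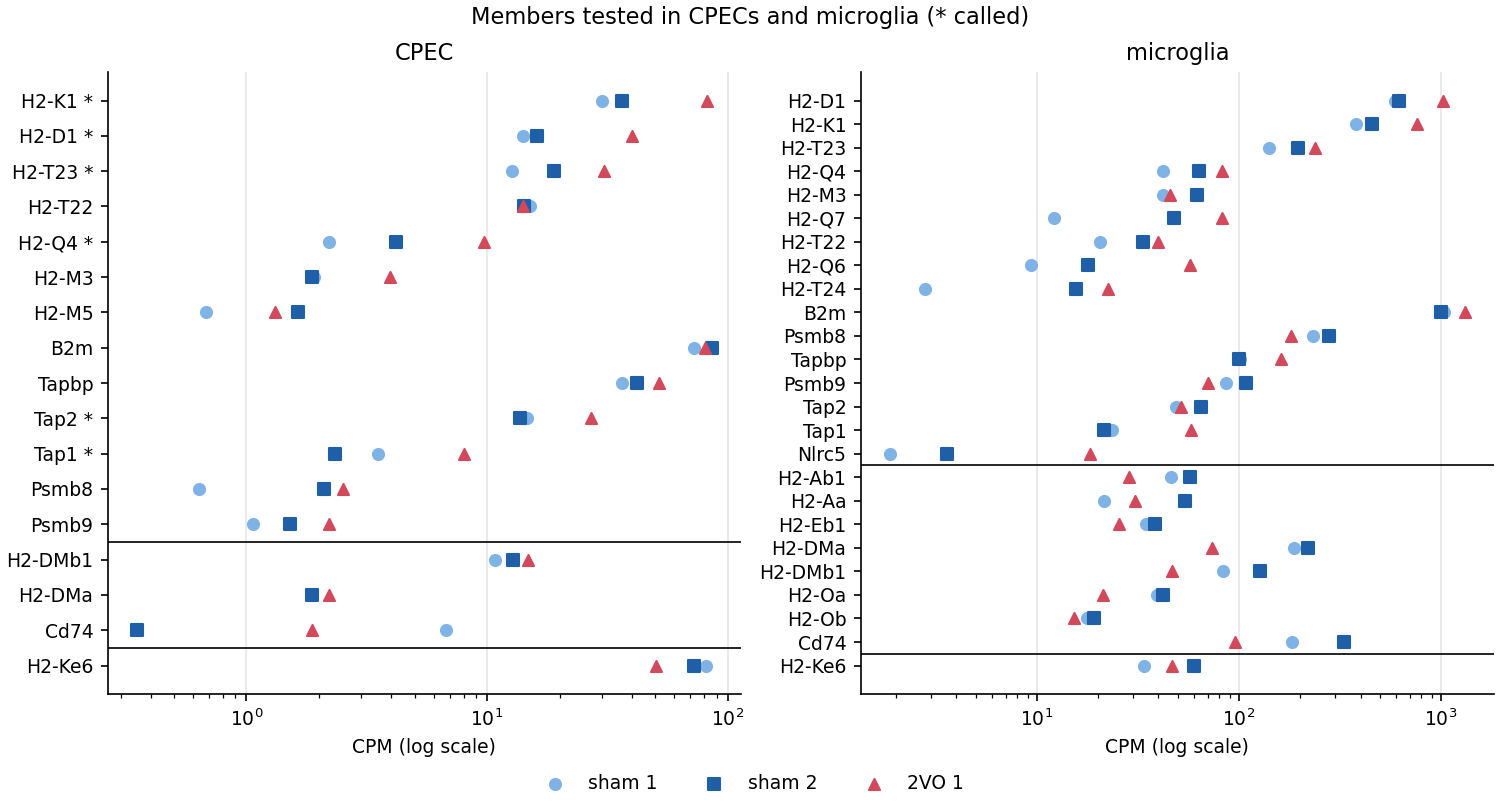
CPM (log axis) of each member tested in CPECs and in microglia, with a symbol for each library and a star for a call; horizontal lines part class I, class II and H2-Ke6, and H2-M2, whose UMIs all came from a single cell, is left out. In CPECs the 2VO point is apart from both sham points for H2-K1, H2-D1, H2-T23, H2-Q4, Tap1 and Tap2, and in microglia it lies right of both sham points for most class I genes and left of them for 7 of 8 class II genes.

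In OPCs 3 members rose: the light chain, the loading factor tapasin and a Qa-2 heavy chain. B2m was at 90.7, 119 and 176 CPM (log2 0.76 ± 0.25, adjusted p 0.047), Tapbp at 13.9, 17.4 and 32.6 (1.09 ± 0.31, adjusted p 0.028) and H2-Q7 at 1.68, 4.04 and 12.7, from 12, 10 and 23 UMIs (2.32 ± 0.71, adjusted p 0.038). The 3 are of 15 members tested in a class where 12.0% of all genes were called higher and 15.4% lower, so calls were frequent there for genes of any kind. The classical heavy chains were not among them: H2-K1 was at 72.4, 79.9 and 112 (0.56, adjusted p 0.087) and H2-D1 at 179, 244 and 210 (-0.01, adjusted p 0.98). Sham OPCs lay mostly in cluster 2 (552, 258 and 59 cells) and 2VO OPCs mostly in cluster 17 (50, 38 and 397 cells). Within these clusters neither B2m (0.74 and 0.25) nor Tapbp (0.91 and 0.80) was called. B2m was called in cluster 16 of 180, 30 and 42 cells (1.36, adjusted p 0.020), against 3.99% of all genes there. The microglial list summed to 108, 45.6 and 810 in OPCs, with 10 of 11 called higher, and the endothelial list to 945, 1722 and 2111, with 6 of 8 called. Their part in the OPC values was not tested. Over the alternatives B2m was called in 3 of 7, and H2-Q7 and Tapbp in 4 of 6 each.

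OLGs, the largest class, had 1 call. H2-Q7 was at 0.104, 0.342 and 4.50 CPM, from 2, 3 and 13 UMIs (log2 4.47 ± 0.97, adjusted p 0.045), so a rise from a level near 0. It was called in 1 of the 3 alternatives that tested it. Over all genes 3.47% were called higher and 8.68% lower. The classical genes had smaller differences in the same direction, with H2-K1 at 43.6, 36.1 and 66.5 (0.73, adjusted p 0.081), B2m at 67.5, 62.5 and 95.9 (0.56, adjusted p 0.11) and H2-D1 at 107, 123 and 156 (0.44, adjusted p 0.17). Of 14 class I members tested 12 were above both sham libraries, where 43.4% of all genes were, with a median of 1.19 against -0.0068 for all genes. Sham OLGs lay mostly in cluster 3 (936, 632 and 66 cells) and 2VO OLGs in cluster 4 (91, 242 and 637 cells). Tested apart, cluster 4 had a single call, Psmb8, with 0, 0 and 17 UMIs, where 9.44% of all genes were called higher, and cluster 3 had none. The microglial list summed to 29.2, 34.5 and 322 in OLGs with all 11 called higher.

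In the neuronal classes and the mural cells the calls rest on few UMIs. H2-D1 in GLUTNs was at 12.7, 29.0 and 141 CPM, from 5, 31 and 16 UMIs (log2 2.61 ± 0.61, adjusted p 0.0045). H2-K1 in GLUTNs was at 17.7, 6.54 and 88.1, from 7, 7 and 10 UMIs (3.05 ± 0.85, adjusted p 0.032). All 6 class I members tested in the class were above both sham libraries, as were 41.5% of all genes, and 1.16% of all genes were called higher, but 2VO 1 held only 15 GLUTNs. In NPCs, B2m was at 16.7, 19.7 and 124, from 14, 10 and 11 UMIs (2.77 ± 0.59, adjusted p 0.047), against 0.675% of all genes, a call kept in 5 of 7 alternatives. The endothelial list was higher in both classes: 564, 1032 and 2334 CPM in GLUTNs with 6 of 8 called, and 504, 500 and 2297 in NPCs with 5 of 7 tested called. Its part in the neuronal values was not tested. In the ECs of 2VO 1 that list stood at 28470, H2-D1 at 1068, H2-K1 at 647 and B2m at 844.

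VSMCs, the contractile cells of arterioles, had a call for H2-K1, at 68.1, 73.6 and 154 CPM from 52, 126 and 84 UMIs (log2 1.11 ± 0.29, adjusted p 0.012), where 2.26% of all genes were called higher. The call was kept in 2 of the 7 alternatives that tested it, with a log2 fold change of 1.06 to 1.26 over all alternatives. H2-D1 in VSMCs was at 141, 130 and 235 (0.80, adjusted p 0.084), with 2VO 1 again above both sham libraries. The microglial list summed to 49.7, 29.2 and 417 there, with all 7 tested called. In VLMCs, fibroblast-like cells of the meninges and vessel sheaths, the called member was Cd74, at 0, 13.2 and 167, from 0, 7 and 23 UMIs (4.15 ± 0.79, adjusted p 0.0065), against 1.02% of all genes. Of the 33 UMIs of Cd74, H2-Aa, H2-Ab1 and H2-Eb1 in the VLMCs of 2VO 1, 32 came from 1 of its 32 cells, so the call rests on a single cell. VLMC class I values had no call, with H2-D1 at 218, 275 and 530 (1.10, adjusted p 0.28).

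**Figure D4:**
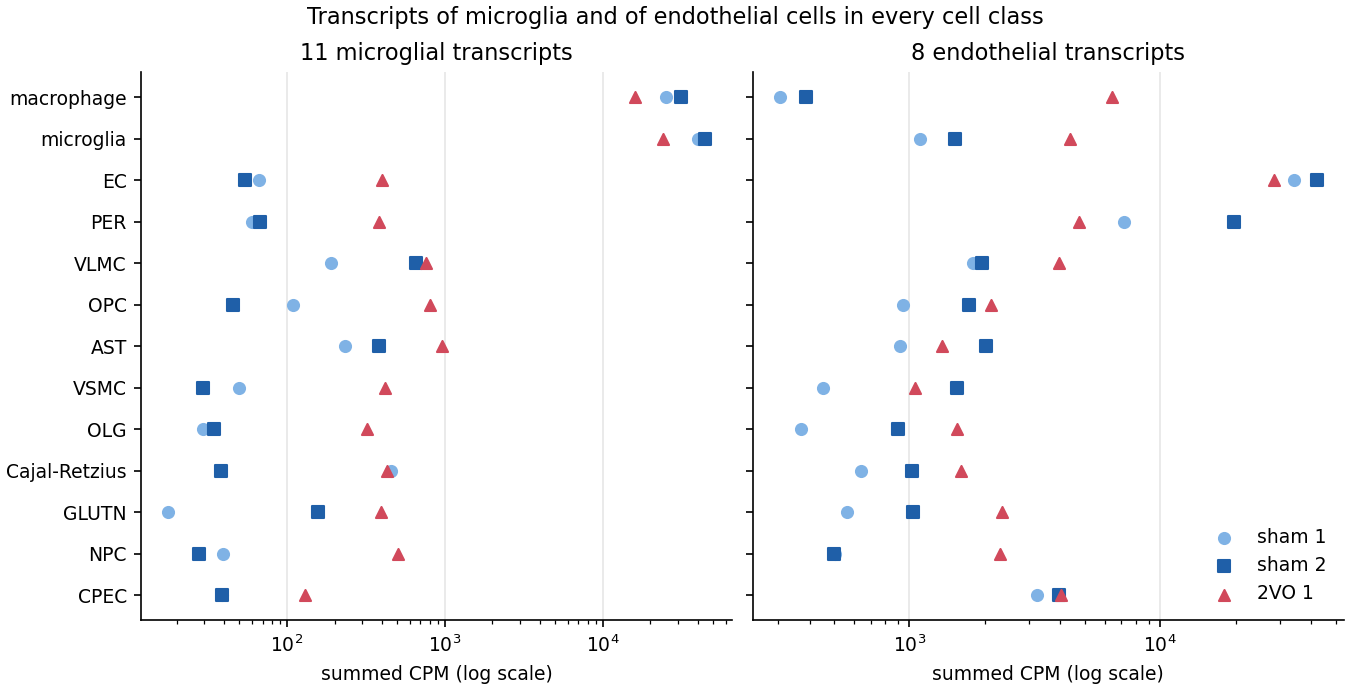
Summed CPM (log axis) of 11 microglial transcripts and of 8 endothelial transcripts in each cell class, with a symbol for each library. Classes with the microglial sum of 2VO 1 above both sham sums include OLGs, OPCs, VSMCs, ECs, ASTs and CPECs. Those with the endothelial sum above both include GLUTNs, NPCs, macrophages, microglia, OPCs and CPECs.

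ECs had high class I in all 3 libraries and no call among 18 members tested, where 0.176% of all genes were called in either direction (3 members had an unadjusted p under 0.05). H2-D1 was at 930, 1127 and 1068 CPM (log2 0.05 ± 0.21, adjusted p 0.90), H2-K1 at 416, 539 and 647 (0.44, adjusted p 0.31) and B2m at 614, 687 and 844 (0.38, adjusted p 0.30). The largest fitted changes of ECs were in the Qa-2 genes, with H2-Q7 at 4.79, 15.5 and 50.3 from 13, 76 and 155 UMIs (2.19, adjusted p 0.16) and H2-Q6 at 3.31, 7.95 and 22.7 (1.91, adjusted p 0.16). The sham libraries already stood apart from each other in these genes. Both were called with no filter on low counts, with cells of at least 200 genes and with doublets removed. When EC clusters were tested one at a time, as was decided after the class result, both were called in the arterial cluster led by Gkn3 and Bmx (182, 309 and 174 cells): H2-Q7 with 8, 26 and 38 UMIs (2.10, adjusted p 3.5e-05) and H2-Q6 with 2, 15 and 21 UMIs (2.25, adjusted p 0.014), where 1.94% of all genes were called higher. H2-Q7 was also called in the cluster led by Lcn2 and Lrg1 (35, 64 and 146 cells), with 0, 26 and 94 UMIs (1.35, adjusted p 0.023), against 1.61% of all genes. Without TMM these were 0, 103 and 142 CPM of the cluster's UMIs, so that 2VO 1 was far closer to sham 2 than sham 1 was. No member was called in the other 2 EC clusters. H2-Q6 and H2-Q7 are near-identical copies, and H2-K1 and H2-D1 share long stretches, so counts of uniquely placed reads may be split between such genes. Psmb9 and Tap1 overlap on chromosome 17 (34181987 to 34187764 and 34187553 to 34197225).

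In PERs none of the 12 class I members tested was above both sham libraries, where 40.2% of all genes were. None of 13 members was called, as was no gene at all (0.0% of 8555, 1237 of them and 2 members at an unadjusted p under 0.05). H2-D1 was at 429, 667 and 358 CPM (log2 -0.62, adjusted p 0.48) and H2-K1 at 162, 329 and 227 (-0.13, adjusted p 0.89). The lowest values were those of the immunoproteasome, with Psmb9 at 31.7, 72.7 and 7.56 from 17, 158 and 3 UMIs (-2.86, adjusted p 0.32) and Psmb8 at 72.8, 134 and 45.4 (-1.23, adjusted p 0.34). The endothelial list in PERs was 7146, 19710 and 4751, highest in sham 2 and lowest in 2VO 1, as were H2-D1, Psmb8 and Psmb9, while H2-K1 and B2m were lowest in sham 1. Its part was not tested. In ASTs B2m was at 101, 123 and 261 (1.22, adjusted p 0.052), just outside the threshold, and H2-K1 at 92.5, 124 and 196 (0.85, adjusted p 0.20), with none of 10 members called against 0.592% of all genes in either direction and 6 members at an unadjusted p under 0.05. Cajal-Retzius cells had H2-K1 at 13.4, 21.9 and 119 from 4, 4 and 8 UMIs (2.77, adjusted p 0.14), with neither of 2 members called, both at an unadjusted p under 0.05, and 0.897% of all genes called.

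Microglia, the resident macrophages of the brain parenchyma, showed class I and class II on opposite sides, without a call. No gene was called in microglia (0.0% of 9790, with 2123 genes and 10 of 26 members at an unadjusted p under 0.05). DESeq2 called no member in microglia, macrophages, ECs, PERs, ASTs or Cajal-Retzius cells either. Of 17 class I members tested, 12 were above both sham libraries and 2 below, with a median log2 fold change of 0.65, whereas 7 of 8 class II members were below both and none above, with a median of -0.89. Among all genes 40.9% were above both sham libraries and 40.3% below. H2-K1 was at 378, 458 and 757 CPM (0.86 ± 0.23, adjusted p 0.14), H2-D1 at 593, 618 and 1024 (0.76 ± 0.20, adjusted p 0.14) and Tap1 at 23.4, 21.6 and 58.0 (1.36 ± 0.30, adjusted p 0.12). Nlrc5 was at 1.87, 3.59 and 18.3, from 2, 3 and 18 UMIs (2.73, adjusted p 0.17). B2m was at 1032, 1003 and 1314 (0.37, adjusted p 0.34). The 2 class I members below both sham libraries were the immunoproteasome genes, Psmb8 at 233, 280 and 180 (-0.51, adjusted p 0.29) and Psmb9 at 86.2, 109 and 70.2 (-0.47, adjusted p 0.36). The absence of calls depended on the cells and genes kept: 4 members were called with no filter on low counts, 7 with cells of at least 200 genes and 8 with doublets removed, each time class I higher and class II lower.

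The class II side of microglia was led by the peptide exchanger. H2-DMa was at 186, 219 and 73.3 CPM, from 199, 183 and 72 UMIs (log2 -1.47 ± 0.26, adjusted p 0.099), and H2-DMb1 at 83.4, 127 and 46.8 (-1.16 ± 0.35, adjusted p 0.17). Cd74 was at 184, 332 and 95.7 (-1.43 ± 0.43, adjusted p 0.17). The restraining chains H2-Oa and H2-Ob had their highest level of all classes in microglia, with H2-Oa at 39.3, 41.9 and 21.4 (-0.92, adjusted p 0.21) and H2-Ob at 17.8, 19.2 and 15.3 (-0.27, adjusted p 0.76). H2-Ab1 was at 45.9, 57.5 and 28.5 (-0.85, adjusted p 0.23) and H2-Aa, the only one of the 8 between the sham libraries, at 21.5, 53.9 and 30.5 (-0.27, adjusted p 0.81). The share of microglia with an H2-DMa UMI was 54.4%, 49.3% and 15.2% (exact 95% intervals 47.5 to 61.2, 42.2 to 56.4 and 11.8 to 19.2), at median depths of 4835, 4285 and 1812 UMIs. Thinned to 1000 UMIs a cell, with 1, 0 and 13 shallower cells left out, it was 18.2%, 16.3% and 7.34% (13.3 to 24.1, 11.5 to 22.1 and 4.89 to 10.5). In OLGs, which should lack the gene, the thinned share was 0.131%, 0.0929% and 0.119%, at median depths of 11484, 7954 and 2318. For Cd74 the untouched shares of 23.3%, 15.8% and 10.8% became 6.54%, 4.93% and 5.16% after thinning, with no order left. The intervals cover counting error only.

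Sham and 2VO microglia were mostly in different clusters: cluster 15 held 135, 116 and 13 cells and cluster 11 held 80, 87 and 368. Cluster 15 is led by Gpr34 and P2ry12, and cluster 11 by Mpeg1 and Csf1r. Neither had a called member. Within cluster 15 H2-DMa was at 211, 240 and 243 CPM of the cluster's UMIs without TMM, the last from 12 UMIs, and within cluster 11 at 117, 126 and 70.9. When the members were among the variable genes microglia kept only 150, 133 and 24 cells, and the H2-DMa change there was 0.13 (adjusted p 0.96). In cluster 11 H2-K1 was at 305, 607 and 856 and H2-D1 at 517, 904 and 1133. There 2VO 1 was above both sham libraries, which were far apart from each other. Within cluster 15 H2-K1 was at 391, 371 and 405 and H2-D1 at 595, 470 and 952, the last values from 20 and 47 UMIs. The log2 fold changes of H2-K1 and H2-D1 in cluster 15 were -0.11 and 0.64 with TMM. With TMM the log2 fold change of H2-DMa was -0.78 in cluster 11 and -0.09 in cluster 15, with no call (adjusted p 1.0 and 0.98). The 11 microglial transcripts themselves summed to 39880, 44590 and 23890 in microglia, and the endothelial ones to 1100, 1523 and 4353. Their part in these values was not tested.

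Class II molecules proper belonged to macrophages. The classical chains summed to 636, 5294 and 4982 CPM in macrophages and to 102, 152 and 84.5 in microglia, with no overlap between them. Their mean was 26.1 in VLMCs, 8.22 in PERs and at most 3.03 in every other tested class. The non-classical chains overlapped between both, at 69.2, 465 and 449 in macrophages and 336, 418 and 160 in microglia. Next came GLUTNs at a mean of 27.3, OPCs at 16.3 and CPECs at 14.9. H2-Aa, H2-Eb1 and H2-Ab1 were among the leading genes of the macrophage cluster, so this order is a description. Ciita, the transactivator of class II, had 11 UMIs in all, 3 of them in microglia and 0 in macrophages.

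In macrophages the 2 sham libraries stood far apart in the class II genes, with 2VO 1 between them. None of the 14 members tested was called, against 4.76% of all genes in either direction, and 0 had an unadjusted p under 0.05. Cd74 was at 885, 4780 and 4396 CPM (log2 0.63 ± 0.67, adjusted p 0.69), H2-Ab1 at 194, 1860 and 1752 (0.75, adjusted p 0.63) and H2-Eb1 at 180, 1851 and 1839 (0.84, adjusted p 0.59). In the same way H2-Aa was at 263, 1583 and 1390 (0.57, adjusted p 0.71), H2-DMa at 41.5, 228 and 224 (0.64, adjusted p 0.62) and H2-DMb1 at 27.7, 238 and 217 (0.61, adjusted p 0.66). In all 6 sham 1 was the low library and 2VO 1 lay between sham 1 and sham 2. Without sham 1 the log2 fold change of Cd74 was -0.10, and without sham 2 it was 2.31. All 8 endothelial transcripts were called higher in macrophages, with sums of 304, 386 and 6431.

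Class II transcripts sat in very few cells. Of 14147 cells, 29 (0.205%) held 10 or more UMIs of Cd74, H2-Aa, H2-Ab1 and H2-Eb1 together, and these held 87.3% of all such UMIs (3589 of 4112). They were 9, 12 and 8 cells in the 3 libraries. By class they were 2, 6 and 6 macrophages, 6, 5 and 1 microglia, and a single CPEC (sham 1, 147 UMIs), ependymocyte (sham 2, 368 UMIs) and VLMC (2VO 1, 32 UMIs). The cell with most UMIs was a macrophage of 2VO 1, with 544. Without these cells microglial Cd74 was at 76.4, 49.6 and 57.0 CPM of the remaining UMIs, with 2VO 1 between the sham libraries, and microglial H2-Aa at 0, 0 and 2.24, while H2-DMa stayed at 172, 208 and 80.5. Since 11 of the 12 microglia left out were from sham and were picked by these UMIs, the fall of Cd74 in sham is set by the choice, which was made after the data were seen.

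**Figure D5:**
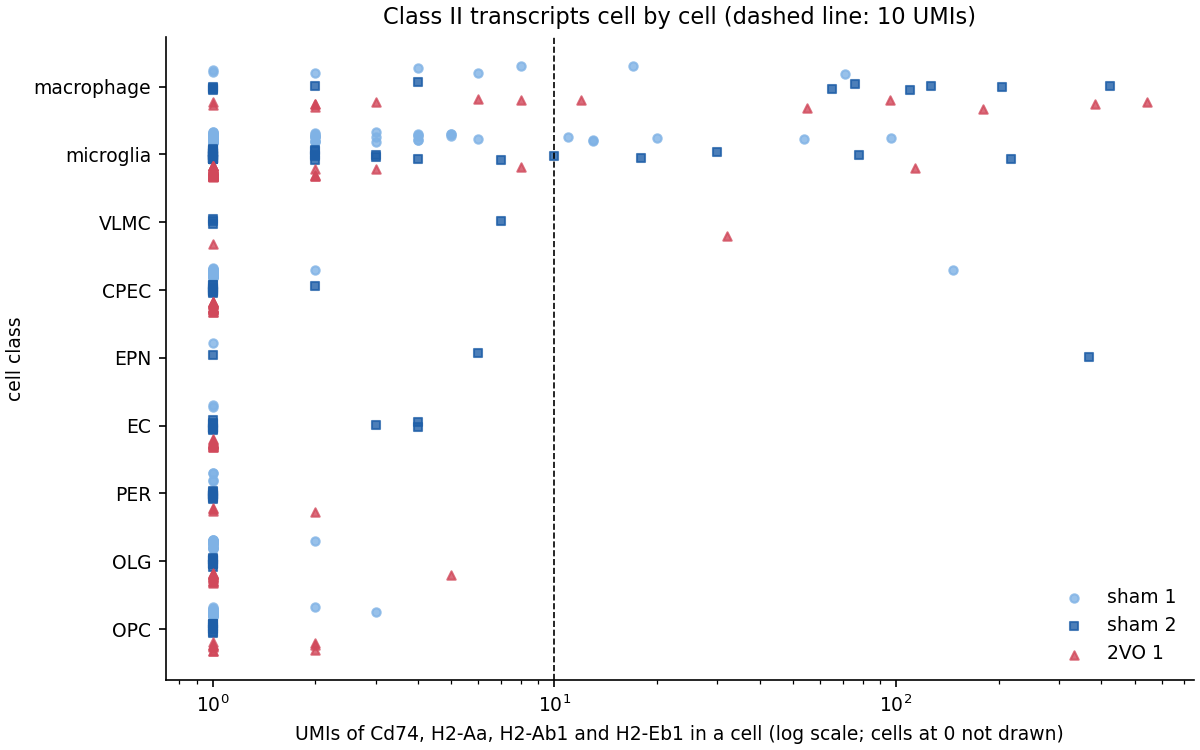
UMIs of Cd74, H2-Aa, H2-Ab1 and H2-Eb1 together in each cell that has any, by cell class and library, on a log axis, with a dashed line at 10 UMIs. Of all 14147 cells 29 lie at or above the line, 14 of them macrophages and 12 microglia.

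The cells rich in class II did not look like the rest of their class. Of the 12 in microglia, 5 had a UMI of Tmem119 and 1 of Sall1, both defining genes of microglia, against 593 and 353 of the 787 other microglia. Cd79a, a B cell receptor subunit, was seen in 3 of the 12 and in 0 of the 787, and Ms4a1, another B cell gene, in 2 and 0. Of the 14 in macrophages, all 14 had Mrc1 and Lyz2, while F13a1 was seen in 3 and Cd163 in 2, against 57 and 46 of the 70 others. The T cell genes Cd3e, Cd3d and Trbc2 were seen in none of these cells. These cells were kept under their cluster's name, and markers of several types in them were not resolved further.

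Whether the 2VO change differed between classes was tested for 6 classes against ECs. In CPECs 4 of 22 members changed more than in ECs, against 1.63% of all genes: H2-D1 by 1.40 ± 0.26 on the log2 scale (adjusted p 0.0027), H2-Q4 by 1.52 ± 0.32 (adjusted p 0.0081), H2-T23 by 0.97 ± 0.25 (adjusted p 0.030) and H2-K1 by 0.93 ± 0.24 (adjusted p 0.033). In microglia 2 of 28 differed, H2-DMa by -4.09 (adjusted p 0.023) and H2-DMb1 by -4.43 (adjusted p 0.047), against 1.69% of all genes lower. In OPCs 1 of 20 differed, H2-DMa by -3.14 (adjusted p 0.041), against 8.92%. The latter 3 rest on a near-empty reference, since ECs had only 0, 3 and 8 UMIs of H2-DMa and 0, 1 and 5 of H2-DMb1. No member differed from ECs in OLGs, PERs or macrophages, where 0.0%, 0.0733% and 2.14% of all genes did. In microglia H2-K1 (0.40 ± 0.30, adjusted p 0.62) and H2-D1 (0.68 ± 0.33, adjusted p 0.36) did not pass either.

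Other genes of the pathway, from lists drawn up with earlier results of these data known, were called in both directions. Of 8 class I pathway genes, Psme2, a subunit of the interferon-inducible proteasome activator, fell in CPECs at 125, 128 and 69.3 CPM (log2 -0.87, adjusted p 0.026, against 4.73% of all genes called lower). It also fell in OLGs (-0.97, adjusted p 0.047) and in OPCs (-1.06, adjusted p 0.015). Erap1, which trims peptides, rose in OPCs from 11.9 and 12.1 to 28.2 (1.23, adjusted p 0.022), where 12.0% of all genes were called higher. No other of the 8 was called in any class, and in CPECs the chaperone Pdia3, next by p, was at 235, 248 and 374 (0.63, adjusted p 0.079). The constitutive proteasome subunits that Psmb8 and its relatives replace fell in 3 classes: Psmb5 in NPCs, OLGs and OPCs (-2.16, -1.14 and -1.31), Psmb6 in OLGs and OPCs (-1.10 and -1.44), and Psmb7 in OPCs (-0.93), with adjusted p from 0.011 to 0.047. Of all genes 1.69% were called lower in NPCs, 8.68% in OLGs and 15.4% in OPCs. None of the 3 was called in CPECs, where Psmb6 was at 236, 223 and 172 (-0.42, adjusted p 0.28) and Psmb5 at 203, 161 and 217 (0.25, adjusted p 0.57). In microglia no gene of either list was called, with Pdia3 at 454, 528 and 290 (-0.76, adjusted p 0.17), Psme2 at 104, 149 and 78.4 (-0.68, adjusted p 0.27), Psmb5 at 152, 138 and 88.6 (-0.71, adjusted p 0.19) and Psmb6 at 215, 179 and 136 (-0.53, adjusted p 0.29). Each of these was below both sham libraries in 2VO 1.

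Among 9 class II pathway genes only Ctss, a protease that cleaves Cd74 and a gene of microglia itself, rose, and it did so in 6 classes that hold almost no class II. It was at 2.64, 2.45 and 12.2 CPM in CPECs (log2 2.25, adjusted p 0.0015), at 3.68, 5.51 and 50.3 in ECs (3.39, adjusted p 0.037) and at 1.98, 1.14 and 46.8 in OLGs (4.83, adjusted p 0.038). In OPCs it was at 9.53, 0.807 and 133, in VSMCs at 1.31, 0.584 and 62.4 and in ASTs at 15.5, 32.3 and 150 (4.34, 6.06 and 2.62). Of all genes 1.63% were called higher in CPECs, 3.47% in OLGs, 12.0% in OPCs and 2.26% in VSMCs. In either direction 0.176% were called in ECs and 0.592% in ASTs. The same 6 classes had a higher sum of microglial transcripts in 2VO 1, and the part of such RNA in the Ctss values was not tested. Rfxap, a subunit of the X box binding complex, fell in OLGs (-1.11, adjusted p 0.039) and OPCs (-1.52, adjusted p 0.0085). The protease gene Ctsl fell in OPCs (-1.32, adjusted p 0.026). Of all genes 8.68% were called lower in OLGs and 15.4% in OPCs. In CPECs Rfxap was at 39.1, 28.2 and 21.7 (-0.65, adjusted p 0.13). In microglia none was called: Lgmn, an endosomal protease, was at 2349, 2379 and 1211 (-0.96, adjusted p 0.12) and March1, a ligase that removes class II from the surface, at 147, 131 and 59.0 (-1.23, adjusted p 0.11). Of the costimulation genes Cd80, Cd86 and Cd40 none was called, with Cd86 at 187, 176 and 129 (-0.49, adjusted p 0.28) and Cd80 at 7.49, 12.0 and 7.13 (-0.42, adjusted p 0.78) in microglia.

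Of the 12 interferon and kappaB input genes, OPCs had 4 called higher, Nfkb1 (log2 1.26), Irf8 (3.43), Ifnar1 (0.86) and Jak2 (0.76), and OLGs 2, Nfkb1 (1.51) and Irf8 (4.09), in classes where 12.0% and 3.47% of all genes were called higher. Irf8 is a myeloid gene, from 7, 3 and 18 UMIs in OLGs and 13, 1 and 27 in OPCs. Irf1, a direct activator of class I promoters, rose in VSMCs from 41.9 and 52.0 to 116 CPM (1.28, adjusted p 0.0072, against 2.26% of all genes there). In CPECs none of the 12 was called, and Irf2 was at 26.6, 27.4 and 17.8 (-0.60, adjusted p 0.13). In microglia Ifngr1, the interferon-gamma receptor chain, was at 654, 749 and 296 (-1.24, adjusted p 0.10). Of 4 MHC-like genes outside the H2- names, Fcgrt, the neonatal Fc receptor that also pairs with B2m, rose in OPCs from 6.31 and 12.9 to 34.9 (1.98, adjusted p 0.013), and the others were not called. Hfe, which regulates iron uptake, was at 36.1, 29.6 and 41.1 in CPECs (0.32, adjusted p 0.43) and at 104, 87.5 and 45.8 in microglia (-1.06, adjusted p 0.14). Cd1d1, which presents lipids, was at 2.00, 1.75 and 3.08 in CPECs (0.69, adjusted p 0.46) and at 12.2, 12.0 and 8.14 in microglia (-0.56, adjusted p 0.65).

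The genes whose level over the 39 sums of class and library was most like that of H2-K1, among 14522 genes and outside the members, were Parp14 (Spearman correlation 0.93), Swap70 (0.91), Samhd1 (0.90), Lyn (0.90) and Rnf213 (0.90). Among members B2m came closest (0.94), then Psmb8 (0.92). For Cd74 they were Csf2rb (0.88), Hcar2 (0.84), Tlr2 (0.81), Ptpn6 (0.81) and Pik3ap1 (0.80), a group known from myeloid cells. The sums share libraries and depth, so these are descriptions.

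The remaining 18 members were too low to place. H2-Q10 had 86 UMIs over all cells, H2-M5 74, H2-DMb2 25, H2-Q1 18, H2-M2 16, Ciita 11, and H2-Q2 and H2-Eb2 4 each. All 16 UMIs of H2-M2 came from a single microglial cell of sham 2. For H2-M1, H2-M9, H2-M11, H2-T3 and H2-M10.1 to H2-M10.6 the count was 0, which over 14147 cells allows up to 3 UMIs.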

How the data were processed

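Hippocampal cells of 2 sham mice and 1 2VO mouse, all C57BL/6, were used. The deposited files are UMI counts per gene and barcode, which the authors made with Cell Ranger on mm10 and, per the submitters' processing notes, also handled with Seurat 3.2.2. Cell names were rebuilt from markers. Barcodes with at least 650 genes were kept, the study's own limit. Clustering used scanpy 1.11.5 (2000 variable genes with the members left out, 30 principal components, 15 neighbours, Leiden resolution 1.0), gave 31 clusters, and named 27 of them from fixed markers. The 4 unnamed clusters (1104 cells) were left out, and no per-sample column was left unused. Doublets were kept in the main results, and an alternative removed the 5% of barcodes with the highest Scrublet score of each library (255, 256 and 196).

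UMI counts were summed per library and class, where every library had at least 10 cells, and tested with edgeR 4.0.16 in R 4.3.3 (TMM factors, filterByExpr, quasi-likelihood test) with Benjamini-Hochberg adjustment over all genes of a class. Differences between classes used a class by condition term with the library as block. The pipeline was tested on simulated data. Library totals were 65287386, 40459614 and 18754480 UMIs, and a count of 0 allows up to 3. DESeq2 1.42.0 was an alternative. Each member with at least 50 UMIs in a tested class is named with its values where its mean level is highest and wherever called, and the others are named with their totals. Of the pathway lists, each called gene is named, and for CPECs and microglia the 2 genes of smallest p in a list, except for values of 1 gene that are not reported here. Gene positions are from GENCODE M21 and promoters from RefSeq. The members and the gene lists were chosen with earlier results of these data known, and the marker lists hold no member.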

Additional observations from a re-analysis of the deposited data

Results flagged for a closer look

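For 6 genes, 1 of them in 2 classes, the change after 2VO differed between a cell class and ECs by the test of the difference itself (edgeR, class by condition). Against ECs, CPECs had a larger change of H2-D1 (by 1.40 on the log2 scale), H2-Q4 (1.52), H2-T23 (0.97) and H2-K1 (0.93). In microglia H2-DMa differed by -4.09 and H2-DMb1 by -4.43, and in OPCs H2-DMa differed by -3.14. The CPEC differences rest on 311 to 748 UMIs a library for H2-K1 and 36 to 88 for H2-Q4, whereas the H2-DMa and H2-DMb1 differences are set against 0 to 8 UMIs in ECs. No sample was tested as standing apart, since no group had 4 samples.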

How the results depend on the processing

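No paired analysis was possible because sham and the 2VO data used here share only replicate number 1, so a fit with the number as a block could not be made. Of the values recomputed under the alternatives, 353 kept their side of the threshold and their direction, 10 turned direction, 30 passed the threshold that had not, 21 no longer passed it and 23 values with no such verdict moved. In CPECs H2-K1 and H2-D1 were called under all 7 alternatives that tested them (log2 fold change 1.17 to 1.66 and 1.31 to 1.76 over all alternatives), and H2-Q4, H2-T23, Tap1 and Tap2 under all 6. Leaving out sham 1 or sham 2 gives values with no test, and the range was then 1.17 to 1.46 for H2-K1 in CPECs. The log2 fold change without sham 1 and without sham 2 was 1.20 and 2.13 for H2-Q4, 0.69 and 1.27 for H2-T23 and 1.77 and 1.18 for Tap1 in CPECs, 2.20 and 3.43 for H2-D1 and 3.64 and 2.28 for H2-K1 in GLUTNs, 0.56 and 0.90 for B2m and 1.64 and 2.84 for H2-Q7 in OPCs, 3.63 and 5.29 for H2-Q7 in OLGs and 3.62 and 7.89 for Cd74 in VLMCs. The cause of the moves below was not tested unless named.

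With DESeq2, where most members have no adjusted p, 2 members were called in CPECs (H2-K1 and H2-D1) and 0 in NPCs, OLGs, OPCs, VLMCs and VSMCs. With library totals alone the count was 1 in ECs (H2-Q7), 0 in OLGs and 2 in VSMCs, and for the difference from ECs 7 in CPECs and 0 in OPCs. With no filter on low counts, which tests more genes, it was 1 in ASTs (B2m), 1 in Cajal-Retzius cells, 3 in ECs (H2-Q6, H2-Q7 and Tap1), 4 in OLGs (1 lower, H2-Ke6), 6 in OPCs (1 lower, H2-Ke6) and 4 in microglia (H2-Q6 and Tap1 higher, Cd74 and H2-DMa lower). With cells of at least 200 genes it was 1 in Cajal-Retzius cells, 2 in ECs (H2-Q6 and H2-Q7), 0 in OLGs, OPCs and VSMCs, and 7 in microglia (H2-D1, H2-K1, H2-Q6, H2-Q7 and Tap1 higher, H2-DMa and H2-DMb1 lower). With doublets removed it was 2 in ECs, 0 in NPCs, OLGs and VSMCs, 2 in OPCs (H2-Q7 higher and H2-Ke6 lower, with B2m and Tapbp no longer called) and 8 in microglia (H2-K1, H2-Q6, H2-Q7, Nlrc5 and Tap1 higher, Cd74, H2-DMa and H2-DMb1 lower). At resolution 2.0 it was 1 in GLUTNs, 0 in OLGs, 1 in OPCs (Tapbp), 0 in VSMCs and 1 for the difference of OLGs from ECs (Psmb8). With members among the variable genes it was 2 in ECs and 0 in OLGs and VSMCs, and with an unnamed cluster added to ECs, chosen after seeing the data, 2 in ECs. Microglial calls thus appeared under 3 settings, against 0 in the reported result.

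The log2 fold changes that turned lay between -0.20 and 0.25. B2m in CPECs was -0.0068 with no filter. Tap2 in ECs was 0.11 with library totals alone, 0.012 with doublets removed and 0.018 with the unnamed cluster added. H2-Ab1 in microglia was 0.25 with doublets removed. With members among the variable genes microglial H2-DMa was 0.13, H2-DMb1 0.16, H2-Oa 0.17, H2-Q6 -0.13 and H2-Q7 -0.20. There microglia were 150, 133 and 24 cells, and a cluster of 83, 93 and 398 cells led by Pf4, Lyz2 and Cd74, with markers of both microglia and macrophages, stayed unnamed. The mean CPM of classical class II in microglia, 113, was 12.8 with members among the variable genes and 64.1 with doublets removed. Thinned to 1000 UMIs, the share with a Cd74 UMI was 0, 0 and 0.357% in OLGs and 6.54, 4.93 and 5.16% in microglia, and that with a chain of class II 0, 0.186 and 0.238% in OLGs and 1.40, 2.46 and 1.09% in microglia.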
